A study of Mus musculus with 16 samples.

Results

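Memory CD4+ T cells lacking heterochromatin protein 1α (HP1α KO) were compared directly with memory CD4+ T cells lacking HP1γ (HP1γ KO). The comparison rests on 8 of the 16 memory cell samples, 4 of each knockout, chosen by the genotype in their labels, and the other 8 are the WT samples of the lines, 4 of each, which served to measure how far the lines differ without a knockout. All samples are from spleen. The cells were sorted as CD4+CD25low/-CD62L-CD44high, which marks antigen-experienced T cells depleted of regulatory T cells (Treg), and were profiled by RNA-Seq of polyadenylated RNA. HP1α KO mice (Hp1a-/-) carry a floxed Hp1a allele excised with CMV-cre, so that the gene is lost in every tissue, and their WT samples are Hp1a+/+ littermates. HP1γ KO mice are homozygous for the floxed Hp1g allele and carry Cd4-cre, which deletes in developing T cells, and their WT samples are littermates homozygous for the same floxed allele without Cre. All lines were kept on a mixed 129/Sv and C57BL/6 background, and sex-matched young adult littermates were used. The knockout groups therefore differ in the isoform lost, in the Cre driver, in the tissues that lost the gene and in the line, and any batch that follows the line cannot be told apart from it.

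HP1 proteins read methylated lysine 9 of histone H3 (H3K9) through their chromodomain and hold methyltransferases and co-repressors on chromatin that is kept silent. HP1α, the product of Cbx5, is best known from the heterochromatin around centromeres, whereas HP1γ, the product of Cbx3, is also found along transcribed genes. KRAB zinc finger proteins, which bind HP1 through TRIM28, silence transposable elements in the same way and lie in gene clusters that are themselves packed with H3K9 methylation. In memory T cells such silencing bears on which cytokine, receptor and lineage genes stay available for a rapid response.

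Library totals ranged from 30714126 to 39554647 estimated counts in HP1α KO, from 26694045 to 38200283 in HP1γ KO, from 27515032 to 38853758 in HP1α WT and from 32325534 to 40199637 in HP1γ WT, and levels below are in CPM, counts scaled to one common total for every library. On the first principal component of log2 CPM, which held 27.6% of the variance, the HP1α KO samples lay between -41.4 and -18.9 and the HP1α WT samples between -36.8 and -14.7. The HP1γ WT samples lay between 0.789 and 36.1, and HP1γ KO replicates 1 and 2 stood apart at 55.7 and 50.9, with replicates 3 and 4 at 16.98 and 30.6. Counts that change by more than 1.5 times without HP1γ KO replicates 1 and 2 are therefore given in both forms, and that alternative was added after these values had been seen. Markers of memory CD4+ T cells such as Cd3e and Cd4 summed to 4183 to 4356 CPM in HP1α KO and 3896 to 4344 CPM in HP1γ KO, and Cd8a and Cd8b1 to 6.24 to 16.02 and 7.66 to 18.5 CPM. Treg transcripts were present: Foxp3, Il2ra and Ikzf2 summed to 209, 202, 220 and 286 CPM in HP1α KO and 272, 385, 223 and 216 CPM in HP1γ KO. None of these Treg markers was called between the knockouts or between WT. Erythroid and platelet markers summed to 35.7, 45.8, 175 and 188 CPM in HP1α KO replicates 1 to 4 and to 1008, 1202, 82.9 and 836 CPM in HP1γ KO, with 3 of 6 tested markers lower in HP1α KO and none called between WT. Dendritic cell markers summed to 20.3, 23.7, 28.1 and 55.8 CPM in HP1α KO and 55.6, 56.8, 41.5 and 156 CPM in HP1γ KO, and Siglech and Clec9a were the called members. In bulk samples fewer cells of a type and less RNA per cell cannot be told apart, and nothing in the labels ties a sample to 1 animal, so p-values measure the spread between these samples.

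The deleted genes were read first. Cbx3 (ENSMUSG00000029836) stood at 88.98, 78.5, 69.2 and 83.6 CPM in HP1α KO replicates 1 to 4 and at 50.3, 46.3, 45.9 and 47.5 CPM in HP1γ KO. Every HP1γ KO sample was below every HP1α KO sample, and the log2 fold change of HP1α KO over HP1γ KO, the direction used throughout, was 0.75 ± 0.11 SE, adjusted p = 0.00027, and a difference given below for a gene is this log2 fold change between the knockouts, set against that of HP1α WT over HP1γ WT where WT is named. Between WT the Cbx3 ranges overlapped, 75.6 to 112 CPM in HP1α WT and 73.4 to 92.5 CPM in HP1γ WT, with a log2 fold change of 0.07. Cbx5 (ENSMUSG00000009575) did not separate the knockouts: it stood at 28.7, 27.6, 23.05 and 29.03 CPM in HP1α KO and 20.1, 22.7, 28.9 and 29.8 CPM in HP1γ KO, overlapping ranges with a log2 fold change of 0.09 ± 0.16 SE, adjusted p = 0.68. The HP1α WT level was 33.8 to 54.05 CPM, and between WT the log2 fold change of Cbx5 was 0.37. Gene-level counts do not resolve the excised exons, so that residual transcript is not read as residual protein. Cbx1, which encodes the third isoform HP1β, was higher in HP1α KO by a log2 fold change of 0.46 (adjusted p = 0.0092), and the WT difference of 0.41 had the same sign and a like size.

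Across 15776 genes with sufficient counts, 2563 were higher in HP1α KO at an adjusted p under 0.05 in edgeR's quasi-likelihood test (16.2% of those tested) and 2695 were lower (17.1%). With the study's threshold of an absolute log2 fold change above 1 added, the call was made for 778 differentially expressed genes (DEG), 4.93% of those tested. Of these, 101 were higher (0.64%) and 677 were lower (4.29%) in HP1α KO. The same contrast between the WT groups gave 1039 genes higher (6.59%) and 1498 lower (9.5%), of which 56 (0.355%) and 255 (1.62%) were DEG. The lower DEG were mostly weakly expressed, with a median of 1.39 CPM against 12.6 CPM over all genes tested, and 511 of them were protein coding. Of the higher DEG, at a median of 0.705 CPM, 43 were protein coding, 14 were immunoglobulin genes and 15 were pseudogenes. The balance of directions depended on the scale: limma on log2(TPM + 1) called 1295 genes higher and 2382 lower at the same adjusted p. Without HP1γ KO replicates 1 and 2 the edgeR counts were 627 higher and 1001 lower, and the DEG 36 and 331.

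Most knockout DEG repeated a line difference in sign, and about as many did so in size as did not. A WT difference was called of like size where the WT log2 fold change was 0.5 to 2 times that of the knockouts with the same sign. Over all 5258 genes called between the knockouts, 4948 had the sign of the WT difference and 3272 also a like size. Of the 778 DEG, 693 had the same sign between WT (89.1%), 408 had the same sign and a like size (52.4%), 284 had the same sign but less than 0.5 of the size, and 85 had the opposite sign. The WT comparison itself called 180 of them as DEG of the same sign, which is 23.1% of the knockout DEG and 57.9% of the 311 WT DEG, and none of the opposite sign. This count was 105 and 107 without HP1γ WT replicates 1 and 2, left out singly, and 102 without HP1γ KO replicates 1 and 2 together. Lower DEG had a median log2 fold change of -1.48 between the knockouts and -0.89 between WT, and higher DEG of 1.39 and 0.75. DEG were chosen by their knockout values, which by itself tends to leave the WT values smaller beside them. A test of whether a knockout difference had another size than the WT difference (the interaction) called 8 genes at an adjusted p under 0.05 (0.0507% of those tested), whereas 1511 reached an unadjusted p under 0.05 (9.58%). Among the 778 DEG, 4 were called in the interaction and 210 had an unadjusted p under 0.05.

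**Figure D1:**
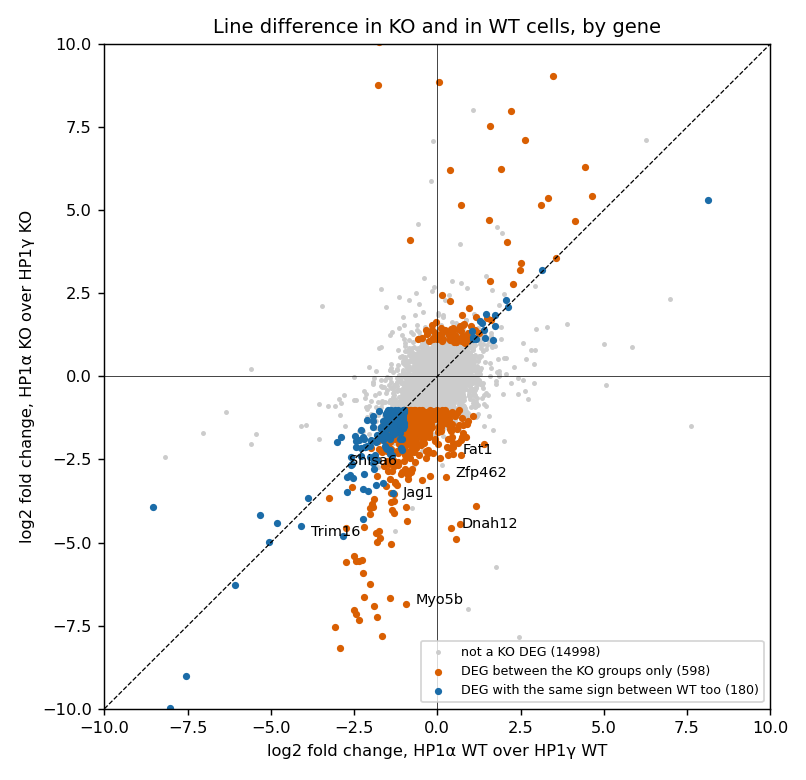
Each point is a tested gene, placed by its log2 fold change of HP1α WT over HP1γ WT (x axis) and of HP1α KO over HP1γ KO (y axis), and the dashed line marks equal values. The 180 DEG that are also WT DEG of the same sign (blue) lie along the line, while many of the 598 other knockout DEG (orange), such as Myo5b, Dnah12 and Zfp462, lie well below it, and 3 genes fall outside the axes.

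Fixed gene lists were then read in the same way, 49 in all, and 33 of them held at least 3 called members at a share above that of all genes. A member is said to have risen, fallen or changed below when its adjusted p over all 15776 genes was under 0.05, and the median log2 fold change of all tested genes was 0.005 between the knockouts and 0.015 between WT. Most genes said below to show no overlap of the knockout samples had been picked for a small p, which favours such separation. The share of all tested genes without overlap was not measured. The lists fell along a range. At one end stood ribosomal protein, nuclear oxidative phosphorylation and splicing genes, with 0 of 80, 8 of 47 and 5 of 15 called members of like size between WT. Zinc finger genes lay between, with 68 of 126 called members of like size, not far from the share over all called genes, 3272 of 5258. At the other end stood clock, Notch, activation and cytokine genes, whose differences were present between WT in sign and size. Counts of WT calls depended on single WT samples: without HP1α WT replicate 1 the lower members fell from 8 to 1 in the JAK and STAT list, from 20 to 9 in the study's Th1 list, from 10 to 5 in the early response list, from 11 to 5 in the glycolysis list and from 7 to 3 among inhibitory receptors. Without HP1γ WT replicate 1 they fell from 21 to 10 in the study's exhaustion list and from 10 to 2 in its list of genes raised in Treg-exposed HP1α KO cells. Falls of this kind also met the WT counts of the Polycomb list (6 to 2 lower, without HP1α WT replicate 1), of the receptor pathway (5 to 0 lower without that sample, 6 to 1 higher without HP1γ WT replicate 1) and of HP1 partners (6 to 2 higher, without HP1γ WT replicate 1). Without HP1α WT replicate 2 the lower members fell from 6 to 1 in the BCL-2 family and from 5 to 2 among heat shock and among imprinted genes, and without HP1γ WT replicate 2 from 7 to 3 among chemokine receptors. Between the knockouts the lower members fell from 12 to 7 in the early response list (without HP1α KO replicate 1), from 22 to 14 in the Th1 list (without HP1α KO replicate 2), from 8 to 3 in the receptor pathway (without HP1γ KO replicate 2) and from 12 to 7 among SR splicing factors (without HP1γ KO replicate 1). With any 1 sample left out, lower WT calls stayed between 9 and 11 for clock genes, between 6 and 9 for Notch genes and between 5 and 7 for cytokines.

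**Figure D2:**
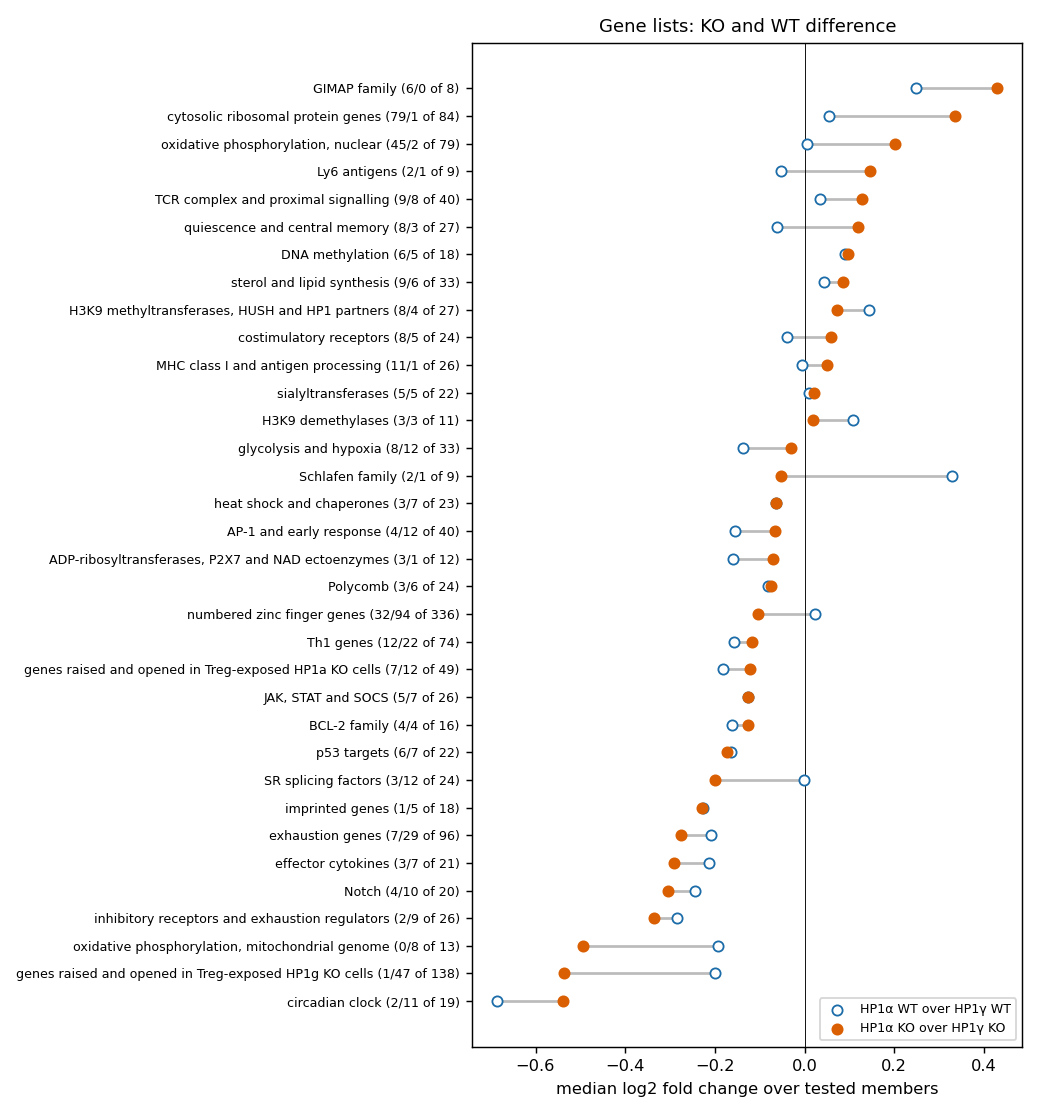
Each row is a gene list, with the median log2 fold change over its tested members between the knockouts (filled orange) and between WT (open blue), and beside it the number of members called higher and lower in HP1α KO. Ribosomal protein genes stand at 0.34 in the knockouts and 0.05 in WT, whereas the points of the clock list, -0.54 and -0.69, lie on the same side of 0.

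Ribosomal protein genes formed the most uniform difference. Of 84 tested cytosolic members, 79 were higher in HP1α KO and 1, Rps4l, was lower, with a median log2 fold change of 0.34, and no member was called between WT, where the median was 0.05. Rpl37a, a protein of the large subunit, stood at 737, 766, 899 and 756 CPM in HP1α KO and at 562, 537, 593 and 568 CPM in HP1γ KO (log2 fold change 0.48 ± 0.07 SE, adjusted p = 0.00036). No HP1γ KO sample reached the lowest HP1α KO sample. Between WT its log2 fold change was 0.10. The sign was shared with WT by 72 of the 79 members that rose, and a like size by none, and 77 of 84 had an unadjusted interaction p under 0.05, although none passed after adjustment. Summed over the list, ribosomal protein transcripts took 73232, 73838, 84379 and 72142 CPM in HP1α KO and 62796, 56807, 60623 and 59515 CPM in HP1γ KO, so that the knockouts did not overlap, while the WT sums of 65583 to 74844 and 62391 to 76023 CPM did. HP1α KO replicate 3 held the highest sum and HP1γ KO replicate 2 the lowest. With HP1γ KO replicates 1 and 2 left out, 66 members were called higher and 0 lower at a median of 0.34, and limma on log2(TPM + 1) called 78 higher and 1 lower. Ribosomal protein pseudogenes, near-identical copies whose reads can be divided among loci and are uncertain, gave 27 higher and 1 lower of 122 between the knockouts and 1 and 0 between WT, with 10 higher and 0 lower without HP1γ KO replicates 1 and 2.

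The respiratory chain moved in opposite directions by genome of origin. Of 79 nuclear oxidative phosphorylation genes, 45 were higher in HP1α KO and 2 lower (median 0.20), against 3 and 1 between WT (median 0.01), and 8 of the 47 called members had a like size in WT. Ndufa6, a subunit of complex I, stood at 67.5, 67.4, 68.9 and 67.3 CPM in HP1α KO and 48.6, 49.3, 52.4 and 56.5 CPM in HP1γ KO, with no overlap (log2 fold change 0.39 ± 0.06 SE, adjusted p = 0.00026), and its WT log2 fold change was 0.04. Ndufs7, also of complex I, differed by 0.50 between the knockouts and 0.22 between WT. In contrast, of 13 protein genes of the mitochondrial genome 8 were lower in HP1α KO and 0 higher (median -0.49), and none was called between WT (median -0.19). All 8 called members had the same sign in WT, 1 had a like size, and none had an unadjusted interaction p under 0.05, so that the mitochondrial difference was not shown to be larger in the knockouts. Transcripts of the mitochondrial genome summed to 16758, 16481, 20011 and 15803 CPM in HP1α KO and 26281, 23328, 22233 and 21479 CPM in HP1γ KO, without overlap, and to 17132 to 25971 and 19799.5 to 29525 CPM in WT. The nuclear counts depended on HP1γ KO replicates 1 and 2: over the whole list of 92 genes 45 were higher and 10 lower, and without these samples the counts were 10 and 1.

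**Figure D3:**
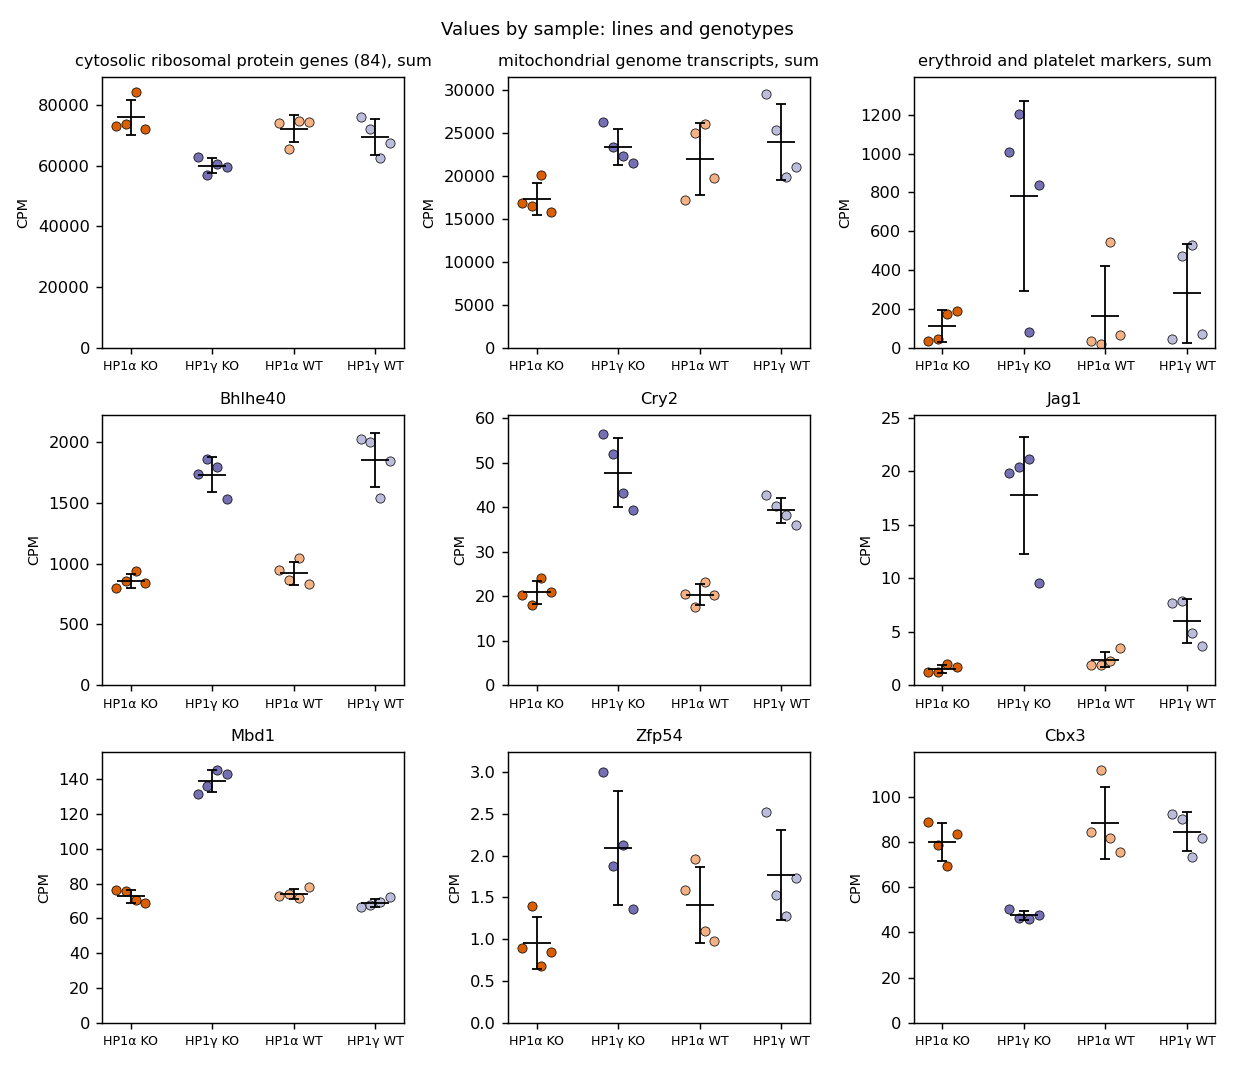
Panels show the level in CPM of each of the 16 samples (points) with the group mean and SD, for the summed ribosomal protein, mitochondrial genome and erythroid marker transcripts and for 6 genes. The knockouts do not overlap for ribosomal protein and mitochondrial sums while the WT groups do, Bhlhe40 and Cry2 separate the lines in both genotypes, and Mbd1 stands higher in the 4 HP1γ KO samples than in the other 12 samples.

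Length and base composition of transcripts moved with these differences. Ribosomal protein genes had a median longest transcript of 1927 bases against 3751 over all genes. When the tested genes were divided into quintiles by length, the median log2 fold change between the knockouts fell from 0.108 in the shortest quintile to -0.101 in the longest, against 0.027 and -0.016 between WT. By GC content it rose from -0.196 in the quintile of lowest GC to 0.105 in the quintile of highest, against -0.036 and 0.034 between WT. In the quintile of lowest GC, 28.2% of the genes were called lower in HP1α KO and 5.19% higher. The part of length and GC in the ribosomal, respiratory, splicing and zinc finger differences was not tested.

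**Figure D4:**
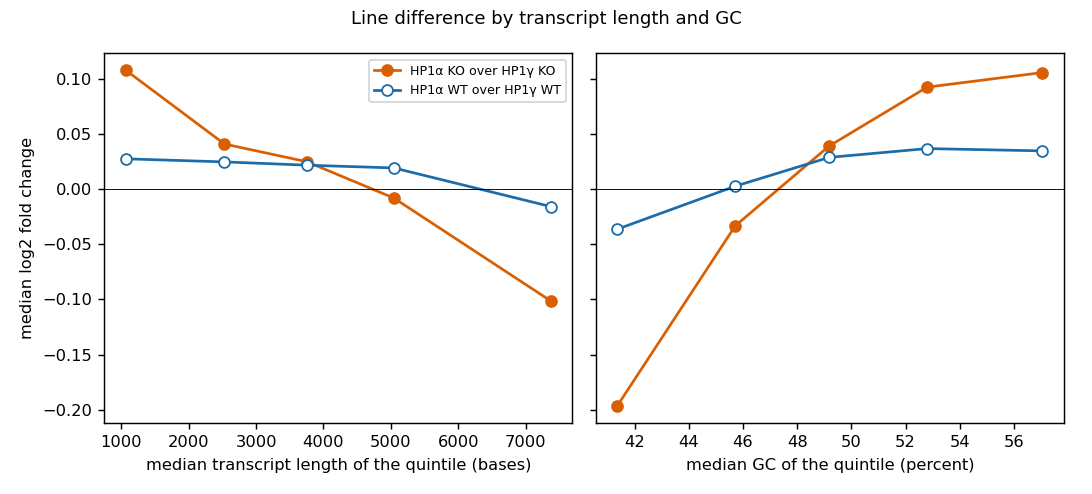
Median log2 fold change between the knockouts (filled) and between WT (open) in quintiles of the tested genes, ordered by the length of the longest transcript (left) and by its GC content (right). The knockout medians run from 0.108 to -0.101 with length and from -0.196 to 0.105 with GC, and the WT medians stay within 0.04 of 0.

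Splicing regulators were lower in HP1α KO as a group. Of 24 serine/arginine-rich splicing factors, their kinases and partners, 12 fell and 3 rose (median -0.20), against 2 and 3 between WT (median 0.00), and 5 of 15 called members had a like size in WT. Clk1, a kinase that phosphorylates these factors, stood at 371, 377, 438 and 379 CPM in HP1α KO and 609, 575, 526 and 459.7 CPM in HP1γ KO (log2 fold change -0.47 ± 0.08 SE, adjusted p = 0.00076), and its WT log2 fold change was -0.13. The knockout samples did not overlap, and HP1γ KO replicates 1 and 2 were the highest. Rbm39, a splicing coactivator, stood at 496, 473, 515 and 459.9 and 1019, 928, 808 and 697 CPM (log2 fold change -0.83 ± 0.09 SE, adjusted p = 4.4e-05) and also differed between WT (-0.47). Luc7l2, a factor of early splice site choice, differed by -0.44 against -0.11 in WT, while Srpk1, another kinase of the family, was higher in HP1α cells of both genotypes (0.41 against 0.42 in WT). The list held 5 lower and 1 higher members without HP1γ KO replicates 1 and 2.

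Numbered zinc finger genes, most of which encode DNA-binding repressors, fell more often than they rose. Of 336 tested, 94 were lower in HP1α KO, 30 of them as DEG, and 32 were higher, with a median log2 fold change of -0.10. Between WT 32 were lower and 21 higher at a median of 0.02. The 94 that fell had a median of -0.82 between the knockouts and -0.32 between WT: 43 of them had a like size in WT, and 51 had less than 0.5 of the size or the opposite sign. Among the 30 DEG the medians were -1.32 and -0.36, and 22 were under 0.5 of the size or of opposite sign. DEG are picked for a larger knockout difference and not for the WT value, a choice that by itself widens the split. HP1α WT replicate 2 bears on these values: without it 60 of the 94 had a like size at a WT median of -0.49, and 13 of the 30 DEG at -0.72, and the WT calls were 43 lower without it but 16 lower and 4 higher without HP1γ WT replicate 1. Counts depended on HP1γ KO replicates 1 and 2, without which 36 were lower and 6 higher. Zfp959 stood at 9.56, 9.38, 10.3 and 10.9 CPM in HP1α KO and 29.8, 24.4, 21.1 and 18.5 CPM in HP1γ KO (log2 fold change -1.22 ± 0.17 SE, adjusted p = 0.00021), with -0.71 between WT. Zfp287 ran the other way, at 34.1, 34.5, 26.9 and 31.8 and 12.6, 12.4, 16.9 and 16.99 CPM (log2 fold change 1.11 ± 0.13 SE, adjusted p = 6.6e-05), and its WT difference of 0.92 had a like size. Zfp62 differed by -0.79 against -0.55 between WT.

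Many of the lower DEG had another within 1 Mb. With starts within 1 Mb of the next counted as neighbours, 423 of the 770 DEG placed in the GRCm39 annotation fell into 153 runs of the same sign, 145 of them lower in HP1α KO, and 61 runs held 3 or more genes. Lower DEG outnumbered higher ones, 677 to 101, and the number of runs that gene density alone gives was not measured. Numbered zinc finger genes were in 12 runs, all lower in HP1α KO, which held 24 of the 30 lower zinc finger DEG. The 5 runs with at least 5 DEG lay on chromosomes 4, 7, 10, 13 and 17 and held 14 of them. The run at chr17:21643446-22935918 had 9 DEG with a median log2 fold change of -1.45 between the knockouts and -0.37 between WT. In that window 19 of 24 tested genes were lower in HP1α KO, none was higher, and between WT 2 were lower and 1 higher. Of its 16 zinc finger genes 14 fell. Each window, here and below, reaches from the first to the last lower DEG of its run. Counts of lower genes inside a window include those DEG and follow in part from that choice, in which WT values had no part. Zfp51, a member, stood at 11.7, 11.3, 8.15 and 10.1 CPM in HP1α KO and 27, 21.9, 21.95 and 19.1 CPM in HP1γ KO (log2 fold change -1.12 ± 0.18 SE, adjusted p = 0.00046), without overlap. Its WT log2 fold change was -0.52. Zfp54, the first DEG of the run, stood at 0.901, 1.40, 0.677 and 0.85 and 2.996, 1.87, 2.12 and 1.36 CPM (log2 fold change -1.12 ± 0.32 SE, adjusted p = 0.013), and the highest HP1α KO sample exceeded the lowest HP1γ KO sample. Without HP1α WT replicate 2 the WT median of the 9 DEG was -0.86, 6 of them had a like size where 1 had with all samples, and Zfp51 was called between WT at -0.73. In the window 12 of 24 genes had an unadjusted interaction p under 0.05 and none passed after adjustment. Members of these runs were named after their values had been seen.

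The run at chr4:145190868-147268015 had 6 DEG with a median of -1.64 between the knockouts and -0.24 between WT, and no gene of the 14 tested there was called between WT. Zfp992, a member, stood at 3.90, 2.77, 2.71 and 2.91 CPM in HP1α KO and 8.76, 6.43, 10.3 and 11.6 CPM in HP1γ KO (log2 fold change -1.59 ± 0.24 SE, adjusted p = 0.00032), and between WT the log2 fold change was 0.09. Zfp268, also in the run, stood at 3.35, 2.29, 2.30 and 3.53 and 10.6, 8.31, 8.82 and 10.04 CPM (log2 fold change -1.71 ± 0.28 SE, adjusted p = 0.00048). Its WT log2 fold change of -0.25 rested on HP1α WT replicate 2, at 9.95 CPM where the other HP1α WT samples held 3.64 to 4.20 CPM, and it was -0.71 (adjusted p = 0.025) without that sample. The WT median of the run was then -0.57. The runs at chr13:62277700-63487775 (5 DEG) and chr7:42258950-44181495 (5 DEG) had medians of -1.45 and -1.84 between the knockouts and -0.11 and -0.40 between WT, or -0.76 and -0.39 without HP1α WT replicate 2. Over all tested genes the chromosome 13 window was mostly lower, 7 of 17 against 1 higher, whereas the chromosome 7 window was mixed, with 6 of 31 lower and 6 higher. At chr10:81030253-83173746 the 10 DEG had medians of -1.65 and -0.69, but 9 of the 57 genes tested in the window rose against 11 that fell, and its member Zfp781 differed by -1.81 against -1.49 between WT. Among the 7 shorter runs, that at chr17:56169475-56256500 (Zfp119a, Zfp959 and Zfp119b) had medians of -1.29 and -0.83 with all 3 DEG of like size, and that at chr11:61847582-62768295, which holds Zfp286 and Trim16, -2.84 and -2.11 with all 4 of like size. Over the 12 runs, 17 of 55 DEG had a like size, and 24 of the 55 were numbered zinc finger genes. The part of transcripts from other cell types in the remaining DEG of these runs was not tested. Near the deleted loci, DEG were 6 of 132 tested genes within 10 Mb of Cbx5 (4.55%) and 7 of 105 within 10 Mb of Cbx3 (6.67%), against 4.93% over all genes.

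**Figure D5:**
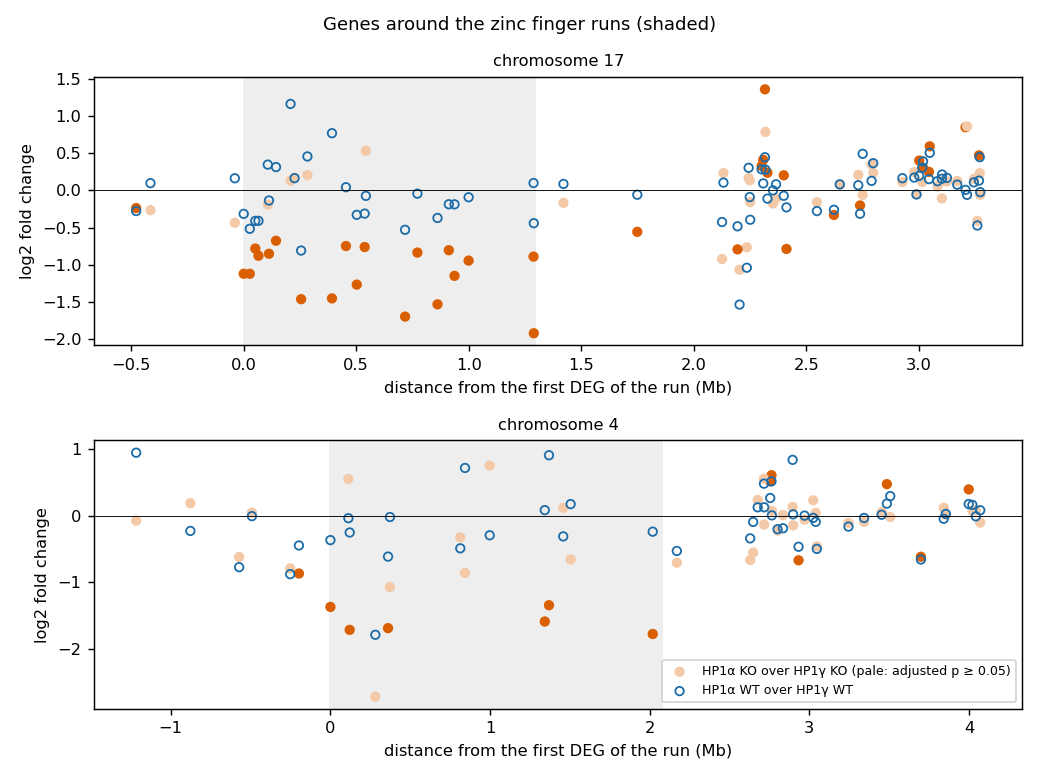
Genes around the zinc finger runs on chromosomes 17 and 4, by distance in Mb from the first DEG of the run (x axis) and log2 fold change (y axis), with the run shaded. Inside the chromosome 17 run 19 of 24 genes are lower in HP1α KO (filled) while their WT values (open) scatter around -0.16, and beyond the run both sets lie around 0. The shaded span reaches from the first to the last lower DEG, so lower genes inside it follow in part from that choice.

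Genes of antigen presentation by MHC class I were higher in HP1α KO, 11 of 26 against 1 lower, while between WT 0 were higher and 4 lower. The list median was nevertheless close to 0 (0.05 and -0.01), so the difference belonged to part of the list. Psmb10, a catalytic subunit of the immunoproteasome, stood at 117, 115, 109 and 107 CPM in HP1α KO and 69.5, 69.7, 83.3 and 84.9 CPM in HP1γ KO (log2 fold change 0.54 ± 0.08 SE, adjusted p = 0.00021), without overlap, and its WT log2 fold change was 0.14. Psme2, part of the proteasome activator, differed by 0.32 against 0.00 between WT. Without HP1γ KO replicates 1 and 2 the calls were 3 higher and 0 lower, and limma on log2(TPM + 1) gave 6 higher and 5 lower.

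Single genes passed the test of the interaction. Mbd1, which encodes a methyl-CpG binding protein that recruits repressors, was at 76.02, 75.7, 70.3 and 68.9 CPM in HP1α KO and 132, 136, 145 and 143 CPM in HP1γ KO (log2 fold change -0.93 ± 0.06 SE, adjusted p = 3.0e-08). The WT groups overlapped at 71.8 to 77.99 and 66.4 to 72.1 CPM, and the interaction was -1.04 (adjusted p = 4.7e-06). Marchf6, a ubiquitin ligase of the endoplasmic reticulum named after its values had been seen, ran the other way, with 88.96, 87.4, 88.7 and 89.9 CPM in HP1α KO and 57.6, 54.4, 46.6 and 48.3 CPM in HP1γ KO (log2 fold change 0.78 ± 0.07 SE, adjusted p = 6.4e-06), a WT difference of -0.04 and an interaction of 0.81 (adjusted p = 0.0020). Oxsr1, a stress-responsive kinase, stood at 80.2, 71.6, 71.8 and 78.9 and 126, 169, 137 and 146 CPM (log2 fold change -0.93 ± 0.09 SE, adjusted p = 9.4e-06), and its interaction of -0.82 also passed (adjusted p = 0.015). In each of these genes the knockout samples did not overlap and the HP1γ KO samples were the ones away from both WT groups.

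Several genes were nearly silent in 3 of the 4 groups. Myo5b, a myosin motor of membrane transport, stood at 0.050, 0.0954, 0 and 0.103 CPM in HP1α KO and at 8.46, 7.83, 3.85 and 10.5 CPM in HP1γ KO (log2 fold change -6.86 ± 0.59 SE, adjusted p = 4.2e-06), while its WT means were 0.0651 and 0.12 CPM. Dnah12, an axonemal dynein of cilia, stood at 0.15, 0.541, 0.294 and 0.309 and 4.59, 7.08, 9.54 and 9.06 CPM (log2 fold change -4.56 ± 0.42 SE, adjusted p = 6.4e-06), with 0.42 between WT and an interaction of -4.98 (adjusted p = 0.0013). The knockouts did not overlap in either gene. Zfp462, a zinc finger protein that works with H3K9 methyltransferases, stood at 0.175, 0.382, 0.265 and 0.103 and 1.33, 1.80, 2.65 and 1.69 CPM (log2 fold change -3.02 ± 0.47 SE, adjusted p = 0.00039), and the WT log2 fold change was 0.25. Fat1, an atypical cadherin, stood at 0.325, 0.35, 1.21 and 0.799 and 3.75, 3.37, 3.14 and 3.31 CPM (log2 fold change -2.33 ± 0.35 SE, adjusted p = 0.00032), with 0.47 between WT. The unadjusted interaction p of Myo5b, Zfp462 and Fat1 was 8.9e-05, 0.00012 and 6.0e-05, and after adjustment over all genes none was under 0.05. Myo5b formed a run of lower DEG with Cfap53 at chr18:74416161-74907382, with medians of -4.83 between the knockouts and -0.96 between WT. Mbd1 belongs to the same neighbourhood of chromosome 18, so the differences of Mbd1 and Myo5b are not counted as independent. Cfap53 was named after its values had been seen. Penk, which encodes the opioid precursor proenkephalin, was intermediate, at 10.7, 18.5, 11.01 and 14.2 CPM in HP1α KO, 50.4, 59.6, 31.4 and 40.1 CPM in HP1γ KO and means of 13.1 and 18.3 CPM in HP1α and HP1γ WT (log2 fold change -1.74 ± 0.23 SE, adjusted p = 0.00015 between the knockouts, -0.49 between WT). Casp4, an inflammatory caspase, showed -0.78 against -0.12 between WT, and in the other direction Thy1, a surface antigen of T cells, Klrk1, the activating receptor NKG2D, and Cdk4, a cell cycle kinase, were higher in HP1α KO by 0.47, 0.80 and 0.43 against 0.07, 0.15 and 0.10 between WT.

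A gene list that the study had drawn from transplanted cells, namely genes raised with opened chromatin in HP1γ KO cells exposed to Treg, was also read here in memory cells, for which the study's methods describe no such exposure. Of 138 tested members 47 were lower in HP1α KO than in HP1γ KO, 26 of them as DEG, and 1 was higher (median -0.54). Between WT 20 were lower, or 8 without HP1γ WT replicate 1, and 0 higher (median -0.20). Of the 48 called members 25 had a like size there, beside 3272 of 5258 over all called genes. Dnah12, Fat1, Oxsr1 and Usp6nl were among its members, and 2 passed in the interaction, with 15 at an unadjusted p under 0.05. Without HP1γ KO replicates 1 and 2 the list held 19 lower and 0 higher. The matching list from HP1α KO cells gave 7 higher and 12 lower of 49 between the knockouts and 1 and 10 between WT, with 0 and 7 without those replicates. Its member Tmcc2 stood at 0.551, 0.573, 1.47 and 1.16 CPM in HP1α KO and 21.04, 27.2, 1.47 and 16.7 CPM in HP1γ KO replicates 1 to 4 (log2 fold change -4.14 ± 0.86 SE, adjusted p = 0.0021), low in the replicate with the lowest erythroid marker sum, and the part of erythroid transcripts in its difference was not tested.

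Some of the DEG of smallest p were carried by the lines as a whole. St6galnac1, a sialyltransferase of O-linked glycans, stood at 1.98, 3.59, 1.80 and 1.18 CPM in HP1α KO and 24.95, 21.5, 29.9 and 31.2 CPM in HP1γ KO (log2 fold change -3.67 ± 0.24 SE, adjusted p = 9.7e-08), and at 2.04 to 2.98 and 32.2 to 43.04 CPM in WT (-3.87). Trim16, a ubiquitin ligase, stood at 0.976, 1.65, 1.68 and 1.24 and 40.1, 33.8, 26.3 and 25.4 CPM in the knockouts (log2 fold change -4.51 ± 0.20 SE, adjusted p = 9.2e-10), with -4.10 between WT. In the other direction Abhd1, a hydrolase-fold gene, stood at 5.78, 7.25, 8.57 and 7.55 and 2.92, 2.69, 2.91 and 2.59 CPM (log2 fold change 1.39 ± 0.15 SE, adjusted p = 2.8e-05), with 1.42 between WT. In these 3 genes, picked for their small p between the knockouts, no HP1α sample of either genotype reached the HP1γ samples. Mettl23, a methyltransferase, and Fbxw10, an F-box gene, differed by 1.36 against 1.03 and -2.98 against -2.62 between WT.

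Clock genes were lower in HP1α cells of both genotypes. The clock is a feedback loop in which ARNTL and CLOCK drive the repressors of the PER and CRY families, with REV-ERB (Nr1d1, Nr1d2), ROR and PAR-bZIP factors (Dbp, Tef, Hlf) around it, and it sets daily rhythms of gene expression in T cells too. Of 19 tested members 11 were lower in HP1α KO, 7 of them as DEG, and 2 were higher (median -0.54). Between WT 11 were lower and 0 higher (median -0.69), and 11 of the 13 called members had a like size. The hour at which animals were sampled is not given in the sources used here. ARNTL and CLOCK bind the E-box, whose core sequence CACGTG reads alike on both strands. It occurred in the 250 bases before a start site of 5 of the 16 clock genes that have a RefSeq promoter (GRCm38.p6) in the table used, and in 6.02% of all 32851 such promoters. These shares are in unlike units, since a gene counts when any of its promoters holds the motif, whereas the background counts promoters. Tef, which also holds the motif, is not shown. The stretches of Per1 (chr11:69098699-69098948, plus strand), Cry1 (chr10:85185055-85185304, minus strand), Bhlhe41 (chr6:145865421-145865670, minus strand) and Ciart (chr3:95882229-95882478, minus strand) are shown 5′ to 3′ with the motif in capitals, since these clock members did not all move alike.
Per1: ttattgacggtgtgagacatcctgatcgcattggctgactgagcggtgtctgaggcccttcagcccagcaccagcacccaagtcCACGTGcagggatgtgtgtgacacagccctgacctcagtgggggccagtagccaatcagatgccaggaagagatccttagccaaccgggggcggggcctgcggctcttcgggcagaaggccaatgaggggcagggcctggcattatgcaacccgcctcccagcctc
Cry1: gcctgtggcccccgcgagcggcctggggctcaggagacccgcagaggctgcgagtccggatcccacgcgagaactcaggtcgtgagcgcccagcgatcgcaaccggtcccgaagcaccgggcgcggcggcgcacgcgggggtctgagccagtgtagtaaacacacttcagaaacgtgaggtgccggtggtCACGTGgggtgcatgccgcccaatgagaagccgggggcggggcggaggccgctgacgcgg
Bhlhe41: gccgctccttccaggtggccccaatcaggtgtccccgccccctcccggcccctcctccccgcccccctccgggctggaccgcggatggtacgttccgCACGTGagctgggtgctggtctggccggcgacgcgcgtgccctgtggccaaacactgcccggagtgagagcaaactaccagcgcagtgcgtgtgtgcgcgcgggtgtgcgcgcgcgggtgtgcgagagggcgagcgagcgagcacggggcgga
Ciart: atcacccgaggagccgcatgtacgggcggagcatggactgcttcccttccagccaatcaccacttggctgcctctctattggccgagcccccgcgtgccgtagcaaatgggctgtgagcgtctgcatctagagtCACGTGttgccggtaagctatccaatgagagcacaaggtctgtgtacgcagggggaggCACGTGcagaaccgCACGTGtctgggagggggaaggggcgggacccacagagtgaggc

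The core sequence starts 166 bases before the start site of Per1, 60 before that of Cry1, 153 before that of Bhlhe41, and 116, 58 and 44 before that of Ciart. Per1 stood at 877, 918, 1264 and 956 CPM in HP1α KO and 1443, 1465, 1561 and 1361 CPM in HP1γ KO (log2 fold change -0.54 ± 0.13 SE, adjusted p = 0.0058), with -0.48 between WT. Bhlhe41, a repressor of E-box genes, differed by -1.19 against -1.92 between WT (adjusted p = 0.036 between the knockouts), Cry1 was higher by 0.33 (adjusted p = 0.019) against 0.14, and Ciart did not pass at -0.35 (adjusted p = 0.069). Thus genes with the motif were found lower, higher and without a call. These 4 genes, and Nr1d1, Nfil3, Dbp and Clock below, were named after their values had been seen.

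Bhlhe40, a transcriptional repressor of clock genes and of Il10 in helper T cells, stood at 798, 857, 942 and 838 CPM in HP1α KO and 1739, 1862, 1798 and 1529 CPM in HP1γ KO (log2 fold change -1.01 ± 0.09 SE, adjusted p = 6.4e-06). Between WT it stood at 830.4 to 1045 CPM in HP1α WT and 1539 to 2025 CPM in HP1γ WT (log2 fold change -1.01 ± 0.09 SE, adjusted p = 1.1e-05), a like size. Cry2 stood at 20.3, 17.97, 24.1 and 20.99 and 56.5, 51.99, 43.2 and 39.4 CPM in the knockouts (log2 fold change -1.19 ± 0.12 SE, adjusted p = 1.1e-05) and at 17.5 to 23.2 and 35.96 to 42.7 CPM in WT (-0.95). In both genes no sample of one line reached the other line. Per2 stood at 11.3, 9.83, 10.7 and 9.76 CPM in HP1α KO and 51.3, 41.4, 20.7 and 18.1 CPM in HP1γ KO (log2 fold change -1.66 ± 0.27 SE, adjusted p = 0.00054), and HP1γ KO replicates 1 and 2 lay well above 3 and 4. Nr1d2 showed the same order at 70.2, 70.8, 87.7 and 62.6 and 232, 189.8, 161 and 135 CPM (log2 fold change -1.30 ± 0.16 SE, adjusted p = 9.7e-05). The WT log2 fold changes of Per2 and Nr1d2 were -1.13 and -0.99. Hlf (-1.62 against -0.83 between WT), Rora (-1.11 against -0.92), Nr1d1 (-0.81 against -0.81) and Nfil3 (-0.84 against -0.93) fell as well, Dbp rose (0.36 against 0.37), and Clock fell between the knockouts by 0.34 against -0.07 between WT. Lower and higher members numbered 9 and 0 without HP1γ KO replicates 1 and 2.

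Notch genes were lower in HP1α KO and in HP1α WT. Of 20 tested members 10 fell and 4 rose (median -0.30), against 8 and 0 between WT (median -0.25). Dtx4, a ubiquitin ligase of the pathway, stood at 32.8, 32.6, 34.1 and 37.1 CPM in HP1α KO and 114, 82.2, 84.1 and 54.3 CPM in HP1γ KO (log2 fold change -1.29 ± 0.17 SE, adjusted p = 0.00013), and its WT difference was -1.41. The receptor Notch2 and the coactivator Maml1 differed by -0.43 against -0.51 and -0.61 against -0.63 between WT. The ligand Jag1 was at 1.25, 1.24, 2.03 and 1.67 CPM in HP1α KO and 19.8, 20.5, 21.2 and 9.60 CPM in HP1γ KO (log2 fold change -3.51 ± 0.31 SE, adjusted p = 4.5e-06), at 1.88 to 3.44 CPM in HP1α WT and at 3.65 to 7.85 CPM in HP1γ WT (log2 fold change -1.34 ± 0.29 SE, adjusted p = 0.0082). Its knockout difference thus had the sign of the WT difference and a larger size, with an interaction of -2.18 (unadjusted p = 7.8e-05, adjusted p = 0.095). HP1γ KO replicate 4 held less Jag1 than the other HP1γ KO samples.

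Genes induced by T cell receptor signalling were lower in HP1α KO, and the same held between WT. In the AP-1 and early response list 12 of 40 members fell and 4 rose, against 10 and 0 between WT, and 15 of 16 called members had a like size. Irf4, a factor of effector differentiation, stood at 157, 116, 212 and 200.1 CPM in HP1α KO and 417, 418, 410.2 and 386 CPM in HP1γ KO (log2 fold change -1.25 ± 0.18 SE, adjusted p = 0.00024), and differed by -1.06 between WT. Fosl2 and Atf3, AP-1 family members, differed by -1.25 against -1.19 and -1.38 against -1.50 between WT, and Rel, an NF-κB subunit, by -1.13 against -0.80. Nr4a2, an orphan nuclear receptor, had -1.03 against -0.82 and lost its call without HP1γ KO replicates 1 and 2, as the list did in part, with 6 lower and 1 higher. Of the helper lineage regulators 6 of 21 fell in the knockouts and 6 in WT, none rose in either, and all 6 had a like size. Among factors named whatever their values, Tbx21 (0.06, adjusted p = 0.66) and Foxp3 (-0.09, 0.83), which define Th1 and Treg cells, did not pass.

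Effector cytokines followed the same pattern, with 7 of 21 lower and 3 higher in HP1α KO and 7 and 2 between WT, and 9 of 10 called members of like size. Tnfsf11, which encodes RANKL, stood at 93.5, 73.8, 103 and 99.2 CPM in HP1α KO and 208, 196, 169.6 and 167 CPM in HP1γ KO (log2 fold change -1.0 ± 0.15 SE, adjusted p = 0.00029), and at 73.6 to 102 and 141 to 217 CPM in WT (-1.02). No HP1α sample of either genotype overlapped the HP1γ samples of that genotype. Tnfsf8, the CD30 ligand, differed by -0.99 against -0.93 between WT, Areg, which encodes the tissue repair factor amphiregulin, by -1.26 against -0.85, and Fasl, the death ligand, by -0.53 against -0.82. Ltb, which encodes lymphotoxin β, rose by 0.42 against 0.14 between WT. Il10, an anti-inflammatory cytokine, stood at 8.08, 10.2, 7.36 and 14.3 CPM in HP1α KO and 19.04, 27.7, 12.9 and 20.97 CPM in HP1γ KO (log2 fold change -1.01 ± 0.25 SE, adjusted p = 0.0061). Its ranges overlapped, its WT difference was -1.26, and it lost its call without HP1γ KO replicates 1 and 2. Ifng (0.10, adjusted p = 0.58), Il2 (-0.29, 0.27), Tnf (-0.14, 0.38), Il17a (-0.63, 0.42) and Csf2 (-0.05, 0.93), the signature cytokines of helper cells, did not pass.

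Inhibitory receptors and exhaustion genes were mixed, and the classical checkpoints did not pass. Of 26 receptors and regulators 9 were lower and 2 higher in HP1α KO (median -0.33), against 7 and 1 between WT (median -0.28), and 8 of 11 had a like size. Pdcd1 stood at 22.1, 38.7, 23.7 and 33.5 CPM in HP1α KO and 33.1, 46.7, 34.1 and 32.7 CPM in HP1γ KO, overlapping ranges (-0.31, adjusted p = 0.42). Lag3 (-0.35, 0.40), Havcr2 (-0.59, 0.37), Tigit (-0.61, 0.064), Ctla4 (-0.42, 0.057) and Tox (-0.30, 0.24) had log2 fold changes below 0 with adjusted p above 0.05. Cd274, which encodes the checkpoint ligand PD-L1, fell by 0.70 and differed by -0.74 between WT. Cd200r1 and Cd160, receptors that restrain lymphocytes, rose (0.91 against 0.77 and 0.87 against 0.42 between WT), and Lilrb4a, another inhibitory receptor, fell with a smaller WT difference (-0.89 against -0.34). In the study's exhaustion list 29 of 96 fell and 7 rose, against 21 and 3 between WT, and in its Th1 list 22 of 74 fell and 12 rose, against 20 and 3. Without HP1γ KO replicates 1 and 2 these lists held 12 and 10 lower members and 1 and 5 higher.

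Metabolic and signalling lists also carried the line difference. Among glycolysis and hypoxia genes 12 of 33 fell in HP1α KO and 8 rose, against 11 and 2 between WT. Hk2, a hexokinase of activated cells, stood at 12.2, 11.6, 22.96 and 13.5 CPM in HP1α KO and 51.99, 42.4, 65.6 and 33.4 CPM in HP1γ KO (log2 fold change -1.68 ± 0.26 SE, adjusted p = 0.00038), with -1.60 between WT. Vegfa and Egln3, both targets of hypoxia signalling, differed by -2.17 against -2.30 and -0.86 against -0.66 between WT. The JAK, STAT and SOCS list held 7 lower and 5 higher of 26 (8 and 1 between WT), and its member Stat5a, which transmits IL-2 signals, differed by -0.93 against -0.54. In that list 1 lower and 1 higher member were called without HP1γ KO replicates 1 and 2. Targets of p53 gave 7 lower and 6 higher of 22 (6 and 5 between WT), with Trp53inp1, a stress protein, at -1.03 against -0.69. BCL-2 family genes gave 4 and 4 of 16 (6 and 2), with the pro-apoptotic Bcl2l11 at -0.77 against -0.75. Heat shock genes gave 7 and 3 of 23 (5 and 0), and sterol and lipid synthesis genes 6 and 9 of 33 (4 and 3). Costimulatory receptors gave 5 and 8 of 24 (5 and 2), where Cd28, the main costimulatory receptor, differed by -0.70 against -0.59 between WT, the OX40 ligand Tnfsf4 by -2.42 against -2.02, and Cd27 by 0.52 against 0.20.

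Among chromatin regulators, Polycomb genes and HP1 partners mostly moved as the WT groups did, and the other 2 lists did so in part. Called members of like size in WT were 10 of 12 for HP1 partners. They were 3 of 6 for H3K9 demethylases and 6 of 11 for DNA methylation genes, beside 3272 of 5258 over all called genes. Polycomb genes gave 6 lower and 3 higher of 24 in the knockouts and 6 and 3 in WT, and all 9 called members had a like size. Kdm2b, which targets a Polycomb complex to CpG islands, had -1.05 against -0.75 between WT and lost its call without HP1γ KO replicates 1 and 2, which stood at 292 and 269 CPM against 153 and 144 CPM in replicates 3 and 4. The partners of HP1, including H3K9 methyltransferases, gave 8 higher and 4 lower of 27 (6 and 2 in WT): the methyltransferase Suv39h2 differed by -0.74 against -0.98, the lamin gene Lmnb1 by -0.86 against -0.74 and the HP1-binding nuclear body gene Sp100 by 0.39 against 0.31. Without those replicates the counts of this list were 0 and 2. The H3K9 demethylases gave 3 higher and 3 lower of 11 (2 and 1 in WT), and Jmjd1c, of that family, stood at 267, 259, 313 and 279 CPM in HP1α KO and 569, 519.8, 534 and 422 CPM in HP1γ KO (log2 fold change -0.87 ± 0.09 SE, adjusted p = 2.4e-05), with -0.68 between WT. In the DNA methylation list, 6 of 18 rose and 5 fell (1 and 3 in WT), and 5 had an unadjusted interaction p under 0.05 (9.58% of all genes did). There Mbd2 and Mbd3 rose by 0.33 and 0.44 against 0.11 and 0.08 in WT, opposite to Mbd1 above, and Tet2, which oxidizes methylcytosine, fell with -0.38 against -0.08 in WT.

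Some lists held more higher than lower members in HP1α KO. The GIMAP family, GTPases needed for T cell survival, rose in 6 of 8 members between the knockouts (median 0.43) and gave 2 higher and 1 lower between WT (median 0.25). Gimap1 stood at 169.8, 173, 136 and 152 CPM in HP1α KO and 84.7, 97.99, 108 and 117 CPM in HP1γ KO (log2 fold change 0.63 ± 0.11 SE, adjusted p = 0.00093), with 0.47 between WT. The HP1γ KO replicates 1 and 2 were the lowest here, and without them 1 member was called. Interferon-stimulated genes rose in 13 of 55 and fell in 1, so that 25.5% were called against 33.3% of all genes, with medians of 0.18 between the knockouts and 0.14 between WT. Between WT 6 were higher and 1 lower, the higher ones running from 0 without HP1α WT replicate 2 to 11 without HP1α WT replicate 3. Between the knockouts 1 rose and 1 fell without HP1γ KO replicates 1 and 2. Usp18, a brake on interferon signalling, stood at 9.81, 9.10, 8.95 and 6.70 and 3.75, 3.40, 4.08 and 3.95 CPM (log2 fold change 1.18 ± 0.20 SE, adjusted p = 0.00061), with 0.78 between WT. Quiescence and central memory genes gave 8 higher and 3 lower of 27 (3 and 5 in WT, where the median was -0.06). Of its lower members, S1pr1, the receptor for exit from lymphoid tissue, and Btg1, an antiproliferative factor, fell with -0.59 against -0.74 and -0.43 against -0.58 in WT. Without those replicates 2 rose and 2 fell.

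Components of the T cell receptor pathway gave 9 higher and 8 lower of 40 in HP1α KO (6 and 5 between WT), and 14 of 17 called members had a like size. Malt1, a paracaspase between the receptor and NF-κB, stood at 245, 261, 309 and 279 CPM in HP1α KO and 559, 541, 385 and 349.9 CPM in HP1γ KO (log2 fold change -0.75 ± 0.15 SE, adjusted p = 0.0018), with -0.53 between WT. HP1γ KO replicates 1 and 2 were the highest, and without them the list held 2 higher and 1 lower. Imprinted genes gave 5 lower and 1 higher of 18 (5 and 0 between WT). Plagl1, an imprinted zinc finger factor, stood at 7.56, 11.2, 16.6 and 9.99 and 56.2, 54.2, 32.5 and 28.5 CPM (log2 fold change -1.92 ± 0.32 SE, adjusted p = 0.00060), without overlap, and with -1.64 between WT, whereas the imprinted antisense transcript Kcnq1ot1 had -0.56 against 0.19 of opposite sign between WT. Sialyltransferases and related genes gave 5 lower and 5 higher of 22 (5 and 2 between WT), of which 8 of 10 had a like size. The purinergic list gave 3 higher and 1 lower of 12 (0 and 1 between WT): the adenosine receptor Adora2a fell with -0.95 against -0.98 between WT, and the ADP-ribosyltransferase Art2b rose with 0.78 against 0.23. The Schlafen family gave 2 higher and 1 lower of 9 (2 and 0 between WT) and the Ly6 antigens 2 and 1 of 9 (0 and 0), with Ly6c1, a surface marker of memory subsets, at 0.53 against 0.20 between WT. Chemokine receptors gave 6 lower and 2 higher of 25 (7 and 3), and Ccr8, a receptor of type 2 and regulatory T cells, differed by -1.07 against -1.51 between WT.

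Immunoglobulin genes, which T cells do not rearrange, were higher in HP1α KO in 15 of 79 tested members and lower in 0 (18.99% called, against 16.2% of all genes higher), and between WT in 2 and 0. The count was 9 without HP1α KO replicate 3. Of the 15 called members, 14 had the same sign between WT and 10 also a like size. The list median was 1.45 between the knockouts and 0.89 between WT. Immunoglobulin transcripts summed to 632, 610.4, 1386 and 703 CPM in HP1α KO and 558, 445, 399.9 and 534 CPM in HP1γ KO, without overlap. The WT sums overlapped at 452 to 927 and 351 to 510.5 CPM. HP1α KO replicate 3 held the highest sum. Ighg3, a heavy chain constant gene, was at 2.48, 1.88, 11.1 and 1.52 CPM in HP1α KO and 0.228, 0.34, 0.196 and 0.257 CPM in HP1γ KO (log2 fold change 4.03 ± 0.93 SE, adjusted p = 0.0040), and it lost its call without HP1γ KO replicates 1 and 2. B cell markers gave 1 higher member of 14, Ighm, itself an immunoglobulin gene, and their sums were 686 to 1507 CPM in HP1α KO and 691 to 1249.6 CPM in HP1γ KO. The 4 plasma cell markers did not move alike. Sdc1 and Xbp1 were lower in HP1α KO, with log2 fold changes of -1.58 and -0.60 against -1.69 and -0.51 between WT. Mzb1 (-0.51 against -0.38 between WT) did not pass. Jchain had the opposite sign, 1.28 against 0.74 between WT, and did not pass either (adjusted p = 0.069). These markers were named after their values had been seen. The part of B lineage transcripts in the immunoglobulin difference was not tested.

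The remaining lists held fewer than 3 called members or a share of them no higher than that of all genes. Cell cycle genes gave 4 higher and 5 lower of 57 in HP1α KO, clustered histone genes 0 and 1 of 39, natural killer receptors 3 and 0 of 18, follicular helper genes 2 and 2 of 19, and Treg signature genes 0 and 4 of 20. The shares over all genes were 16.2% higher and 17.1% lower. Cytokine receptor chains gave 3 and 6 of 33, cytotoxic granule genes 4 and 3 of 22, and integrins and adhesion genes 5 and 4 of 28. The integrin list held Cd44, the activation antigen on which the cells had been sorted as high, which stood at 300.2, 273, 273 and 266 CPM in HP1α KO and 332, 361, 363 and 336 CPM in HP1γ KO (log2 fold change -0.32 ± 0.06 SE, adjusted p = 0.0011), with -0.35 between WT.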

How the data were processed

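The 16 memory cell samples, 4 in each group, were assigned by the genotype and replicate that their titles give. Treatment labels that speak of transferred cells do not match the account of the memory cells in the study's methods and were not used. Reads had been processed by the authors with nf-core/rnaseq (Trim Galore, then STAR on GRCm39, then Salmon), who deposited estimated counts per gene without normalization, of which 11.6% are not whole. The authors also deposited TPM, which keep no depth. The library kit is stranded.

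Estimated counts were rounded, filtered with filterByExpr (minimum count 10) and scaled by TMM, and 1 edgeR 4.0.16 quasi-likelihood fit over the 4 groups (R 4.3.3) gave the knockout difference, the WT difference and their difference (interaction). P-values are two-sided with Benjamini-Hochberg adjustment over 15776 genes, and for DEG an absolute log2 fold change above 1 was required besides an adjusted p under 0.05. CPM are TMM-scaled, and low levels rest on few counts. Positions and transcript lengths came from GENCODE annotation of GRCm39, which held 15697 of the tested genes, and promoters from RefSeq.

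Members and gene lists were chosen with earlier results of these data known. Genes named were the HP1 isoforms, up to 15 DEG of smallest p in each direction, up to 5 called members of each list, DEG called in the interaction and a set of T cell genes whatever their values, and a few of these are not reported here. Others are said to be chosen after seeing values. The script was tested on simulated data. Samples of one number did not deviate together, and no replicates were duplicates. Alternatives were DESeq2 1.42.0, limma 3.58.1 on log2(TPM + 1) and log2(TPM + 0.1), other size factors and filters, separate fits of 8 samples, a robust fit, a replicate block, and omission of samples.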

Additional observations from a re-analysis of the deposited data

Results flagged for a closer look

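The difference between the knockouts differed from that between WT for 8 genes in the interaction test, given as the knockout minus the WT log2 fold change. It was -1.04 for Mbd1, -4.98 for Dnah12, -0.82 for Oxsr1, -1.12 for Gm47015, -5.12 for Gm49215, -2.03 for Shisa6, -0.79 for Als2cl and 0.81 for Marchf6. In Als2cl the WT groups differed and the knockouts did not pass.

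Dixon's test set 1 sample apart from its group of 4 in 29 of 396 groups over 99 genes and sums, where chance gives about 1 in 20. HP1α KO replicate 3 accounted for several, all above the other samples of its group: Atf3 at 105 CPM (others 37.6 to 49.04), Clk1 at 438 CPM, Hk2 at 22.96 CPM, Ighg3 at 11.1 CPM, Ndufa6 at 68.9 CPM, Stat5a at 170.2 CPM, the ribosomal protein sum at 84379 CPM and the immunoglobulin sum at 1386 CPM. HP1α KO replicate 4 stood apart for Casp4 at 26.2 CPM, Hlf at 2.52 CPM and the CD8 markers at 16.02 CPM, and replicate 1 for Zfp992 at 3.90 CPM.

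HP1γ KO replicate 4 stood apart for Jag1 at 9.60 CPM (others 19.8 to 21.2), Nr4a2 at 333 CPM, Tet2 at 101 CPM, the CD8 markers at 18.5 CPM and the dendritic cell markers at 156 CPM, and HP1γ KO replicate 2 for Pdcd1 at 46.7 CPM. Among HP1α WT samples replicate 2 stood apart for Ndufa6 at 60.5 CPM, Zfp268 at 9.95 CPM, Zfp808 at 5.06 CPM and the ribosomal protein sum at 65583 CPM, replicate 3 for Areg at 23.5 CPM and the erythroid markers at 544 CPM, and replicate 4 for Als2cl at 285 CPM. Among HP1γ WT samples replicate 1 stood apart for Lag3 at 76.7 CPM, replicate 2 for Irf4 at 393 CPM, replicate 3 for Tet2 at 106 CPM and replicate 4 for Gimap1 at 134 CPM.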

How the results depend on the processing

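Main counts were 101 DEG higher and 677 lower in HP1α KO, 56 higher and 255 lower in HP1α WT, 180 shared and 4 called in the interaction. Leaving out 1 sample at a time gave 74 to 132, 537 to 774, 22 to 89, 137 to 319, 105 to 214 and 4 to 7. WT counts moved most: higher DEG were 36, 22, 23 and 89 without HP1α WT replicate 1 and HP1γ WT replicates 1, 2 and 3, lower DEG 169, 137 and 143 without HP1α WT replicate 2 and HP1γ WT replicates 1 and 2, shared DEG 105 and 107 without HP1γ WT replicates 1 and 2, and interaction DEG 7 without HP1α WT replicate 4. Requiring 10 counts in every sample gave 39, 406, 28 WT higher and 2 in the interaction. Limma on log2(TPM + 1) gave 39, 257, 19, 87 and 65 shared. Adjusted p alone gave 2563, 2695, 1039, 1498, 1984 shared and 7, and a log2 fold change above 2 gave 31, 172, 12, 52 and 33. In the interaction DESeq2 called 37 DEG and no filter 10. Without HP1γ KO replicates 1 and 2, an alternative added after seeing the data, 36, 331 and 102 shared were called, and without replicates 1, 2 and 4, where the lone sample is assumed to vary like the others, 24, 154, 62 and 1. Other counts stayed within 1.5 times.

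Replicate numbers did not pair the samples: correlations of same-numbered knockout samples were -0.067, -0.047, -0.108 and 0.071, and 1 of 8 correlated best with its own number. A replicate block gave 102, 656, 54, 244, 174 and 4.

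Of 232 named calls between the knockouts none reversed. DESeq2 kept 231, the block 227, and omission of HP1γ KO replicates 1 and 2 kept 155. The reversed values were of genes not called. Cbx5 between the knockouts was -0.30 and -0.35 with limma at pseudocounts 1 and 0.1, and -0.10 and -0.086 without HP1γ KO replicates 1 and 2, or 1, 2 and 4. With 1 sample left out at a time, Csf2 ran from -0.32 to 0.14 (0.04, 0.14 and 0.0073 without HP1α KO replicates 2, 3 and HP1γ KO replicate 3), Foxp3 from -0.25 to 0.22 (0.03 and 0.22 without HP1α KO replicate 2 and HP1γ KO replicate 2) and Tbx21 from -0.011 (without HP1α KO replicate 3) to 0.10. Csf2 was 0.19 and Tbx21 -0.063 without HP1α KO replicates 3 and 4, and Tbx21 was -0.016 and -0.017 with limma. Omission of HP1γ KO replicates 1 and 2, or 1, 2 and 4, gave Foxp3 0.50 and 0.47. Ifng was -0.017 without 1 and 2, and Havcr2 and Lag3 were 0.080 and 0.059 without 1, 2 and 4. Between WT, Cbx3 ran from -0.063 (without HP1α WT replicate 2) to 0.14 and Dnah12 from -0.17 (without the same sample) to 0.61, and Shisa6 was 0.054 and 0.050 with limma. The cause of these changes was not tested. Depth limits genes of a few counts, such as the lower DEG at a median of 1.39 CPM.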
